A study of Homo sapiens with 42 samples.

Results

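The ligands and receptors of axon guidance were followed as 65 genes among 60609 genes listed, chosen by symbol: 20 semaphorins, 9 plexins, 14 Eph receptors, 7 ephrins, 4 Robo receptors, 3 Slits, 4 UNC5 receptors and 4 netrins. Poly-A RNA-seq counts were taken from 786-O cells, a clear cell renal cell carcinoma line in which loss of VHL stabilizes HIF-2α and which has no functional HIF-1α. The 42 libraries fell into 2 labelled batches of 27 and 15, with 3 biological replicates per group, and the study asked how the intrinsically disordered region (IDR) of each HIF-α isoform shapes the genes it regulates. The first batch (batch 1) held unmodified WT cells, 2 single homozygous knock-in clones named HIF-1β KIN (A21) and HIF-2α KIN (A31) carrying a HaloTag on the endogenous protein, and stable lines that expressed, from a weak L30 promoter, V5-Halo-tagged HIF-1α, HIF-1α R30E, HIF-1αDM, HIF-2α, HIF-2α R27E or HIF-2αDM on top of the endogenous HIF-2α. R30E and R27E are DNA-binding mutants, and DM stands for the dimerization mutants with R170A and V191D in HIF-1α or R171A and V192D in HIF-2α. The genotype label of the HIF-2αDM libraries names HIF-1α, while their title and description name HIF-2αDM, which was used here. The second batch (batch 2) held WT cells and L30-driven lines with HIF-1α, HIF-2α and 2 domain swaps. HIF-2α/1α joins residues 1 to 365 of HIF-2α, the structured DNA-binding and dimerization part, to residues 364 to 826 of HIF-1α, its IDR, and HIF-1α/2α joins residues 1 to 363 of HIF-1α to residues 366 to 870 of HIF-2α. RNA was extracted by different methods in the 2 batches, so levels were compared within a batch.

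Guidance cues steer growing axons and migrating cells by attraction or repulsion. Semaphorins signal through plexins, and the secreted class 3 semaphorins usually need neuropilins as co-receptors. Ephrins are membrane-bound ligands of the Eph receptor tyrosine kinases, Slits act through Robo receptors, and netrins act through DCC, neogenin and UNC5 receptors. Outside the nervous system the same molecules take part in vessel patterning, epithelial adhesion and kidney development, and several are known as regulators of tumour growth and angiogenesis.

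Batch 1 libraries held 42377599 to 101186554 counts and batch 2 libraries 76366799 to 109642159. Transgene reads count on the endogenous genes, so HIF1A and EPAS1 check the labels. HIF1A rose from a mean of 293 normalized counts in WT cells of the second batch to 13161 with HIF-1α, and EPAS1, the gene of HIF-2α, from 12621 to 42541 with HIF-2α. In the HIF-2α/1α line HIF1A was at 9625 and EPAS1 at 20745, and in the HIF-1α/2α line they were at 9734 and 51430. The chimeras carry only a part of each gene, so these levels are not like measures of transgene dose. The part of unequal transgene RNA in the comparisons between lines was not tested. HIF1A was also above WT in the HIF-2α line (log2 change 1.67, SE 0.084, adjusted p = 4.25e-21), and EPAS1 was below WT in the HIF-2α KIN clone (-1.23, SE 0.20, adjusted p = 0.000101). The renal and carcinoma markers PAX8, PAX2, LHX1, KRT8, KRT18 and VIM were at 274.1 or more normalized counts in every library. Endothelial and leukocyte markers reached at most 38.1 (TEK), with CD3E at 0 throughout. Of the neuronal markers, NEFL lay between 15495 and 43951, RBFOX3, SNAP25 and SYT1 between 9.58 and 727, and STMN2 at no more than 6.32. The summed level of these 5 neuronal markers, nearly all NEFL, lay between 33801 and 37489 in WT libraries of the second batch, between 30559 and 32728 with the HIF-1α IDR and between 20997 and 28666 with the HIF-2α IDR. Its part in the results was not tested. In bulk RNA, fewer cells with a transcript and less of it per cell cannot be told apart.

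The promoter windows of 6 members described below are printed first: PLXNA2 and SEMA5B, which were highest with the HIF-2α IDR, SEMA3F and SEMA3E, which were lower with it, and PLXNA4 and EPHB4, which were above WT with both isoforms. Each runs from 250 bases before to 50 bases after the RefSeq start on GRCh38.p14, 5′ to 3′ on the gene's strand, and capitals mark the core of the hypoxia response element, ACGTG or GCGTG, searched on both strands (CACGT or CACGC on the other one). The windows are chr1:208244335-208244634 (minus strand), chr3:123028556-123028855 (minus), chr3:50154808-50155107 (plus), chr7:83649090-83649389 (minus), chr7:132576421-132576720 (minus) and chr7:100827474-100827773 (minus).
PLXNA2: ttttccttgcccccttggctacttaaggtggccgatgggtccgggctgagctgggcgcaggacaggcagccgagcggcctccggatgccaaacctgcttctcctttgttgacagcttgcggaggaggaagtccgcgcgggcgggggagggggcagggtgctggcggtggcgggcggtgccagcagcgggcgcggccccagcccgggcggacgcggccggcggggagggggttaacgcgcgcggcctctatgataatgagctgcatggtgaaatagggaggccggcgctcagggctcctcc
SEMA5B: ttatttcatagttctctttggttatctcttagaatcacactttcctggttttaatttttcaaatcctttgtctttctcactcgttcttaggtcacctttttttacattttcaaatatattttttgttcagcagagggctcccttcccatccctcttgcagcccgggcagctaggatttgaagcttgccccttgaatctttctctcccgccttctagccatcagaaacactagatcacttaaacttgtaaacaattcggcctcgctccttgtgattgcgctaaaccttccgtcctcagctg
SEMA3F: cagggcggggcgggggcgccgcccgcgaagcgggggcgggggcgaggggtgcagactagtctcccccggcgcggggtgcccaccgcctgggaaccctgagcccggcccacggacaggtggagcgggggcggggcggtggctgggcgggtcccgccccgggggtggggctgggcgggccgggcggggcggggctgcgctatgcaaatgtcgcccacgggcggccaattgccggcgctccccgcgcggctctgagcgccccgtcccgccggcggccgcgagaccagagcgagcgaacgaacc
SEMA3E: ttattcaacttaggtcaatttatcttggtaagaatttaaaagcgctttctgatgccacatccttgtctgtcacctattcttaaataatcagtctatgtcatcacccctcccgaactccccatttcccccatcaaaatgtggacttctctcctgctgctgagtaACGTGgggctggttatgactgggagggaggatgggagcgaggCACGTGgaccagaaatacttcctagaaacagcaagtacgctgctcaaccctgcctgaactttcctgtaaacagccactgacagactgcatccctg
PLXNA4: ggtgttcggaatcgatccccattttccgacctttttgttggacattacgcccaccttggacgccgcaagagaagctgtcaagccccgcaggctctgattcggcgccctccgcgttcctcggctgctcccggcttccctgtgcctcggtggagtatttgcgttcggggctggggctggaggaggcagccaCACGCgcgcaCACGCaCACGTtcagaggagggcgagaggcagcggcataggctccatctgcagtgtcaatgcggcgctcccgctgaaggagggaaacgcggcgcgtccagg
EPHB4: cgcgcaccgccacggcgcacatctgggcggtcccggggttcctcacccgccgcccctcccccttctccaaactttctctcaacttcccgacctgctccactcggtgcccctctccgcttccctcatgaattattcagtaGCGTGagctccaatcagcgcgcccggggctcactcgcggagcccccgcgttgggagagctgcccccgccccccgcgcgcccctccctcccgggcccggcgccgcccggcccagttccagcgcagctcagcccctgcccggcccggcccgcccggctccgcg

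PLXNA2, SEMA5B and SEMA3F held no core in this window, EPHB4 held 1, and SEMA3E and PLXNA4 held 3 each, where the palindrome CACGTG of SEMA3E counts on both strands. Among the 56 members with a RefSeq window, 29 held at least 1 core (51.8%), beside 17012 of all 35116 windows (48.4%). Each member was given its first listed window, while the share over all windows counts every window listed. The shares are therefore not of like sets. SEMA3A, SEMA6A, SEMA6B, NTN1 and UNC5B were not among the windows. The PLXNA4 window lies inside the gene as annotated in GENCODE (ENSG00000221866.9, chr7:132123340-132648688), downstream of its outermost start.

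In WT cells the repertoire was dominated by a few genes. On the RPKM scale, which is per length, EPHA2, the main receptor of the ephrin-A ligands in epithelia, had the highest level of all members in both batches (171 ± 29.2 and 100.4 ± 3.87, SD, n = 3). PLXNB2, a receptor of class 4 semaphorins, came next (147 ± 24.7 and 78.2 ± 2.68), ahead of the transmembrane semaphorin SEMA4B (124 ± 17.1 and 55.2 ± 2.57). The mean levels of EPHA2 and PLXNB2 were closer to each other than their SDs in the first batch, but not in the second. In batch 1, 26 of 65 members reached an RPKM of 1, and 25 did in batch 2, among them 6 of 9 plexins and 5 of 7 ephrins but 2 of 14 Eph receptors and none of the UNC5 or Slit genes. PLXNA2 was at the low end of its family in WT cells, at 0.421 ± 0.0856 and 0.357 ± 0.04, above PLXNC1 and PLXNA4. EPHA3, EPHA7 and UNC5D had at most 3 counts in every library of both batches, as did EPHA8, ROBO2 and SEMA3D in the first batch.

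**Figure D1:**
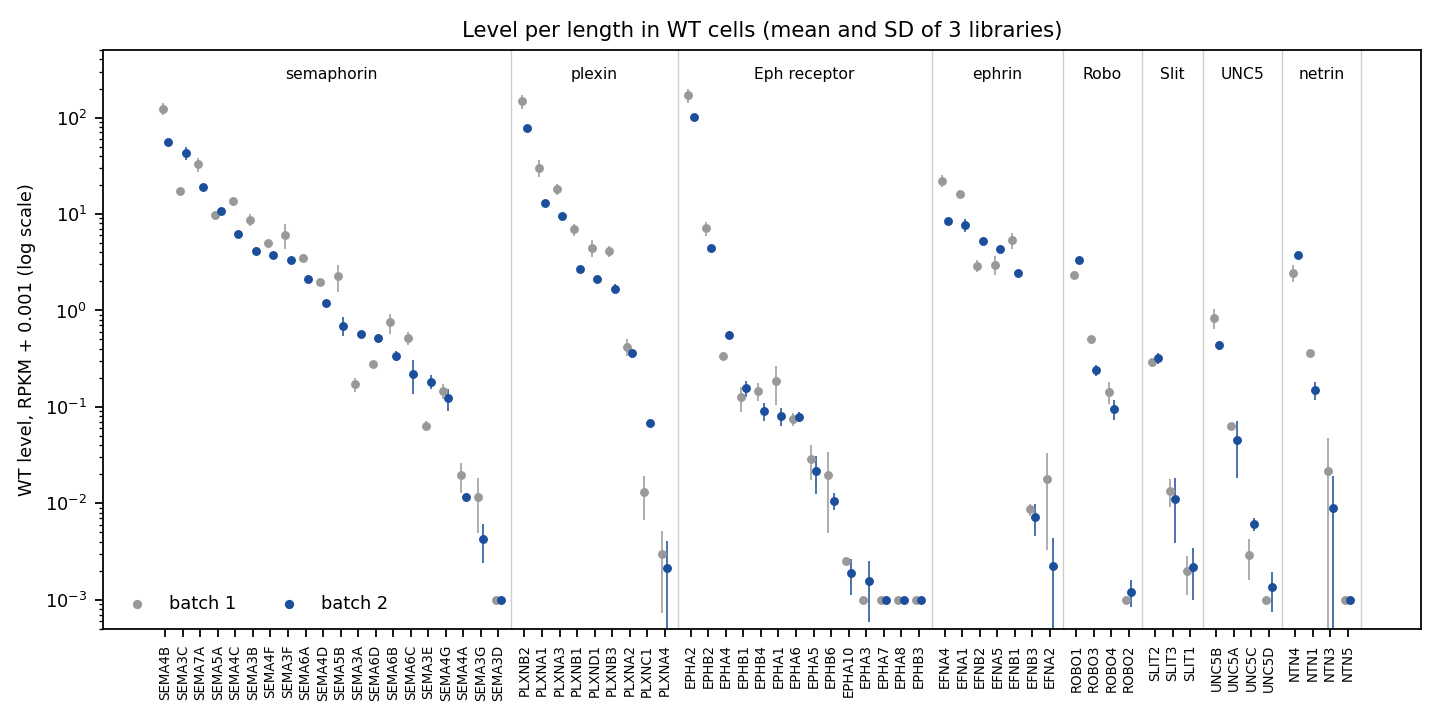
Level per length of the 65 members in WT cells. The y axis gives RPKM plus 0.001 on a log scale, points are means of 3 libraries and bars their SD, grey for batch 1 and blue for batch 2, and members are ordered within each family by level. EPHA2, PLXNB2 and SEMA4B stand highest, while 24 members in batch 1 and 26 in batch 2 lie under an RPKM of 0.1.

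Against WT cells of the same batch, members were called where the adjusted p did not exceed 0.01 and the level differed by 2-fold or more (edgeR quasi-likelihood test with Benjamini-Hochberg adjustment over all genes, the source of every adjusted p below). The low-count filter left 59 members to test in batch 1 and 62 in batch 2. Of these 62, HIF-1α raised 11 and lowered 1, beside 3.9% of all tested genes called higher and 0.484% lower. HIF-2α/1α raised 8 and lowered 2 (2.98% and 0.508% of all genes). HIF-2α raised 12 and lowered 2 (5.45% and 2.13%). HIF-1α/2α moved the most members of the 4 lines, with 15 higher and 8 lower (5.1% and 2.68%). The median log2 change over the tested members was 0.41, 0.40, 0.69 and 0.33 in these lines, beside 0.030, 0.032, 0.070 and 0.077 over all genes. In batch 1 HIF-1α raised 9 of 59 members and lowered 1 (3.27% and 0.517% of all genes), and HIF-2α raised 10 and lowered 3 (3.78% and 1.94%). The HIF-1α count of 10 was 16 with DESeq2, 14 with the replicate number as a block, since its libraries and those of WT cells with the same number deviated together, and 5 to 9 with 1 library left out. All comparisons of a batch share its 3 WT libraries. Each construct or clone is a single labelled group of libraries in its batch. The adjusted p therefore reflects the spread between libraries of a line, not between lines made independently. Over both batches 34 of the 62 members tested in either were called against WT in at least 1 of the 12 lines and clones. The share was 13.7% of all genes tested in either batch. The other 31 of the 65 members, which include those never tested, were called in none, among them EPHA2, PLXNB2 and PLXNA1.

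**Figure D2:**
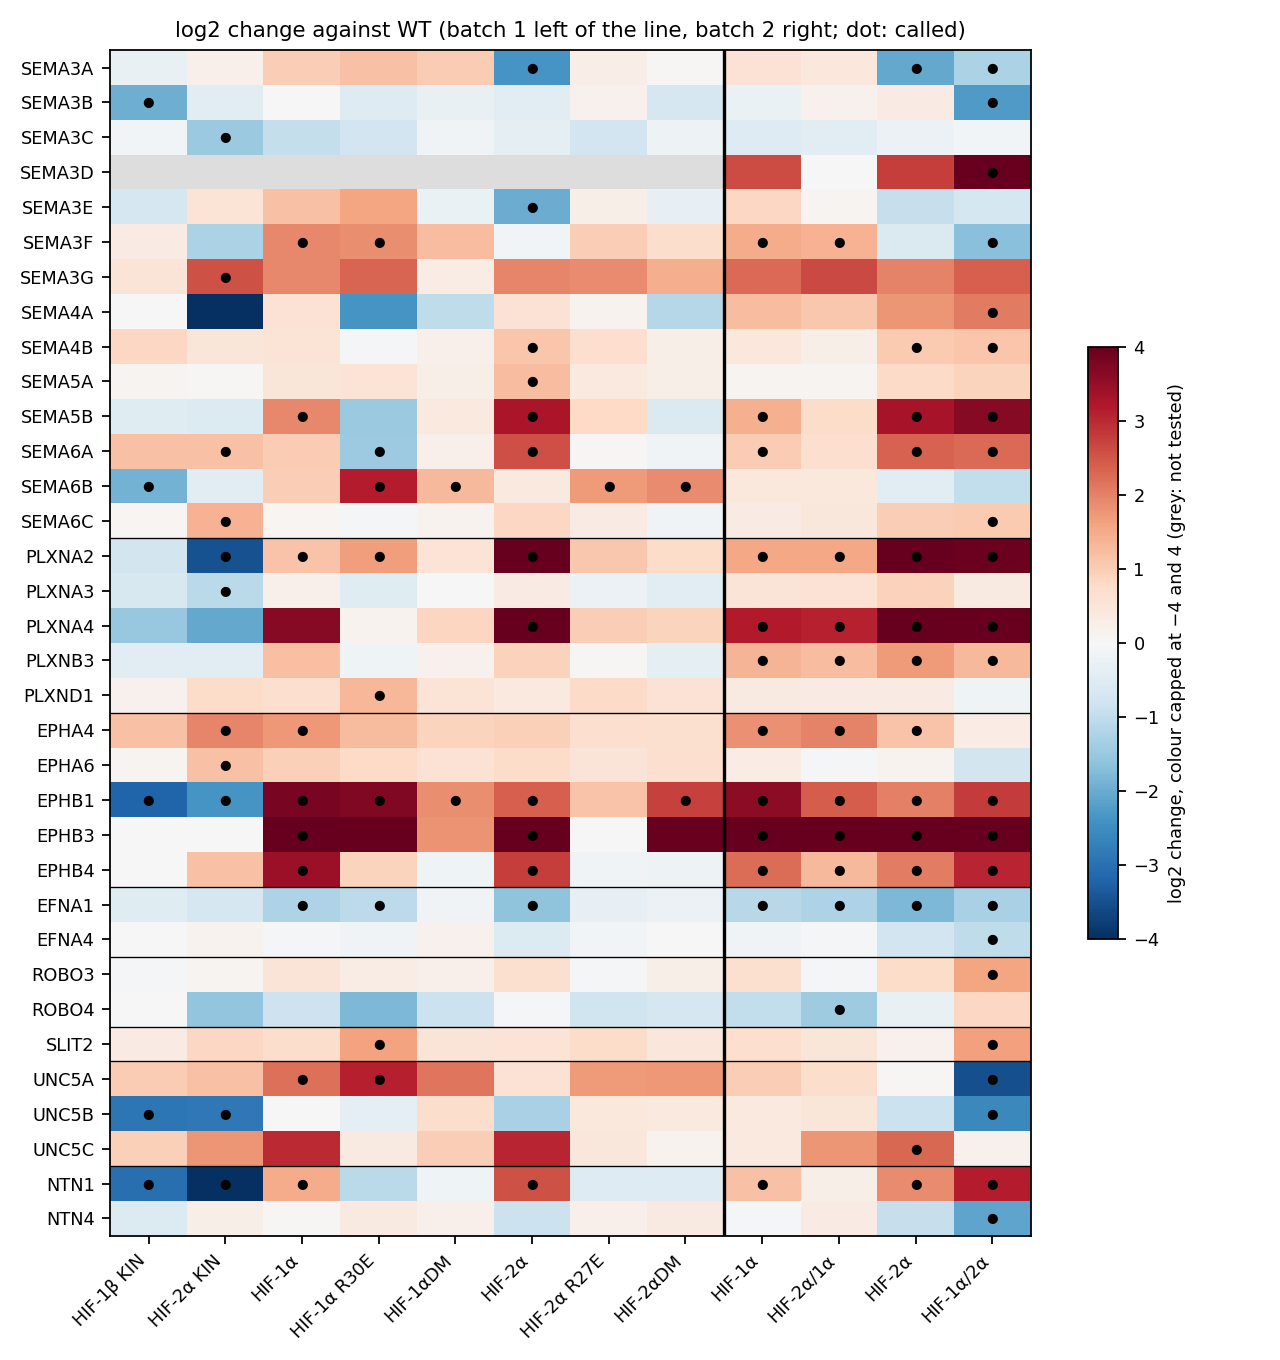
Log2 change against WT of the 34 members called in at least 1 line or clone, grouped by family from semaphorins at the top to netrins at the bottom. Columns left of the vertical line are batch 1 and right of it batch 2, colour is the log2 change capped at −4 and 4, dots mark calls and grey marks untested entries. EPHB1, EPHB3, EPHB4, PLXNA2, PLXNA4 and PLXNB3 are called higher in all 4 transgenic lines of batch 2, and EFNA1 is called lower in all 4.

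The 4 lines of the second batch cross both IDRs with both structured domains. Each combination is held by a single labelled line. The part of the line itself therefore cannot be told apart from that of its IDR or structured domain. The IDR effect is the mean log2 level of HIF-2α and HIF-1α/2α minus that of HIF-1α and HIF-2α/1α, the structured-domain effect is HIF-2α and HIF-2α/1α minus HIF-1α and HIF-1α/2α, and the interaction is the IDR effect on the HIF-2α structured domain minus that on the HIF-1α structured domain. The IDR effect was called for 14 of 62 members, 6 higher and 8 lower with the HIF-2α IDR, beside 1.9% and 2.5% of all genes. Higher were PLXNA2, SEMA5B, NTN1, ROBO4, SEMA6A and PLXNA4, and lower were UNC5A, SEMA3F, SEMA3A, UNC5B, NTN4, SEMA3E, EPHA4 and SEMA6B. The count includes PLXNA2, which the study had already named as a HIF-2α responsive gene. In 10 of the 14, the 6 libraries with one IDR did not overlap the 6 with the other, the exceptions being PLXNA4, ROBO4, SEMA6B and UNC5A. Such a gap was found for 66.6% of all genes called for the IDR effect and for 13.2% of all genes tested. The structured-domain effect was called for 4 members (1.04% of all genes in either direction), with NTN1 lower and SEMA3B, UNC5A and UNC5C higher with the HIF-2α structured domain. The interaction was called for 6 (1.18% of all genes), namely UNC5A, SEMA3B, UNC5B, EPHA6 and SEMA3F with positive and SLIT2 with negative values.

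**Figure D3:**
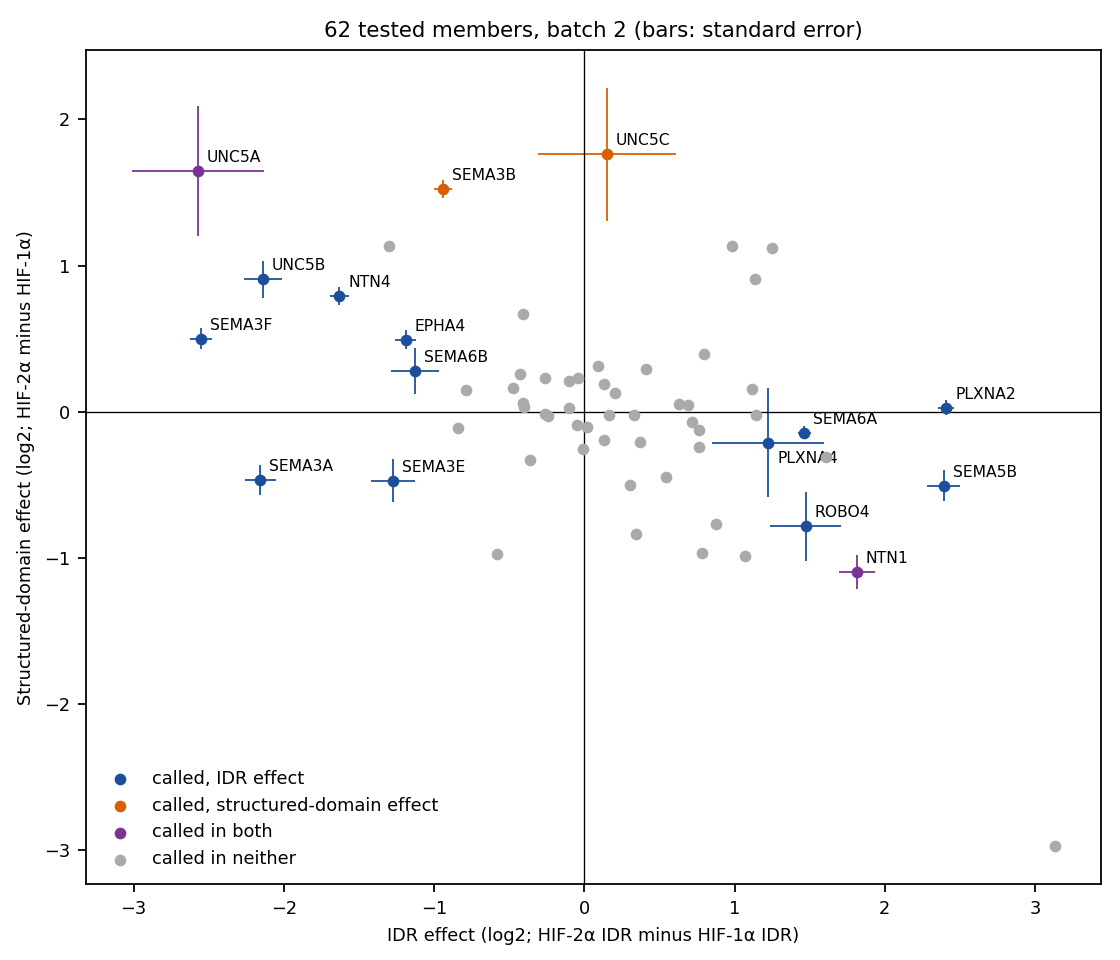
IDR effect (x axis) against structured-domain effect (y axis) for the 62 tested members of batch 2, both in log2 units, with standard errors for called members. PLXNA2 and SEMA5B lie far right at 2.41 and 2.39, SEMA3F, SEMA3A, UNC5A and UNC5B far left, and NTN1 and UNC5A are called on both axes.

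Among the receptors of semaphorins, PLXNA2 (ENSG00000076356.7, chr1:208022242-208244384, minus strand), a plexin that binds class 6 semaphorins directly and class 3 semaphorins through neuropilins, showed with SEMA5B the largest IDR effect towards the HIF-2α IDR. The study had already named PLXNA2 as a HIF-2α responsive gene from these data, so its IDR effect restates a known result. The WT libraries of PLXNA2 held 402, 498 and 429.9 normalized counts. With HIF-1α it stood at 1283, 1239 and 1379, and in the HIF-2α/1α line at 1298, 1286 and 1335. HIF-2α brought it to 7169, 7268 and 6679, and HIF-1α/2α to 7108, 7332 and 5973. The libraries thus fell into 3 levels without overlap, WT lowest, then the lines with the HIF-1α IDR, then those with the HIF-2α IDR. Its log2 change against WT was 1.55 (SE 0.081, adjusted p = 3.91e-20) with HIF-1α and 3.99 (SE 0.083, adjusted p = 2.08e-35) with HIF-2α. The IDR effect was 2.41 (SE 0.054, adjusted p = 1.85e-34), while the structured-domain effect of 0.027 (SE 0.052, adjusted p = 0.81) was not called and its libraries overlapped. An antisense gene, ENSG00000287220, overlaps PLXNA2. Counting ignored strand and used union mode, in which a read on exons of both genes goes to neither. Where such exons overlap, PLXNA2 reads may therefore be missing from its count.

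The first batch placed PLXNA2 from far below to far above WT. Its WT libraries held 314, 389 and 473 normalized counts and those of the HIF-1β KIN clone 178, 247 and 282. In the HIF-2α KIN clone it was at 44.5, 44.3 and 19.4, the lowest 3 libraries of the batch (log2 change -3.49, SE 0.28, adjusted p = 1.87e-09). HIF-1α gave 654, 797 and 1129, HIF-1α R30E 1016, 1139 and 1587 and HIF-1αDM 553, 498 and 657. HIF-2α gave 5539, 6273 and 7389, its R27E mutant 706, 904 and 851 and its dimerization mutant 684, 652 and 615. Every transgenic line thus lay above all WT libraries, and the 3 HIF-2α libraries lay above all others. The change was called for HIF-2α (4.03, SE 0.26, adjusted p = 1.57e-11), HIF-1α R30E (1.67, SE 0.24, adjusted p = 3.07e-05) and HIF-1α (1.13, SE 0.24, adjusted p = 0.00207), the last of which was lost without HIF-1α replicate 3 or WT replicate 1 or 2 (log2 changes 0.89 to 1.13, adjusted p = 0.0131 to 0.024). With the replicate number as a block HIF-2α R27E was called as well (1.08, adjusted p = 0.000439). So it was by DESeq2 (1.06, adjusted p = 0.00129) and without the low-count filter (1.05, adjusted p = 0.000145). HIF-2α exceeded its own mutants by 2.96 (SE 0.25, adjusted p = 2.83e-09) for R27E and 3.30 (SE 0.25, adjusted p = 4.61e-10) for DM.

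**Figure D4:**
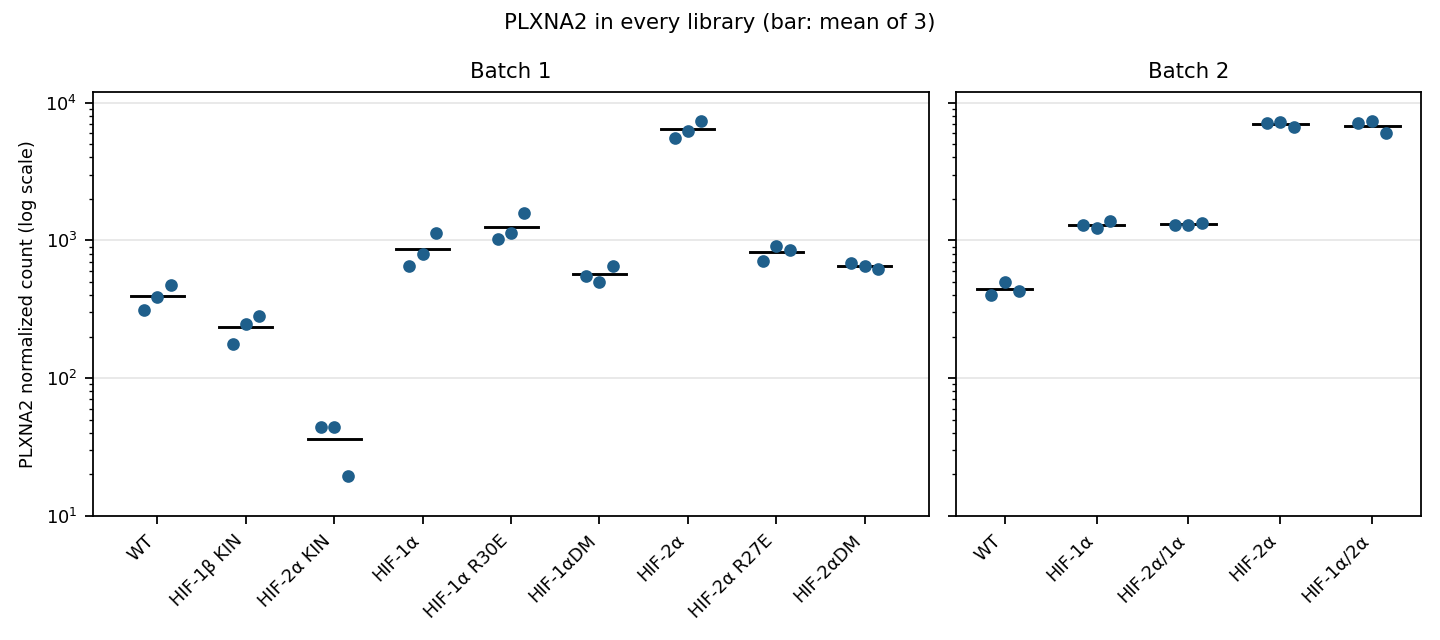
PLXNA2 in every library. The y axis gives the normalized count on a log scale, each point is 1 library and each bar the mean of 3, with batch 1 on the left and batch 2 on the right. The HIF-2α KIN libraries lie between 19.4 and 44.5, and the lines carrying the HIF-2α IDR on an unmutated structured domain lie between 5539 and 7389.

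PLXNA4, another class A plexin that serves class 3 and class 6 semaphorins, was also called higher in all 4 lines of the second batch, at far lower counts. Its WT libraries held 0, 0 and 5.01 normalized counts, so every fold against WT rests on WT replicate 3. Without it the fitted log2 changes were between 6.84 and 8.28, which are no bounds, and without WT replicate 2 they were between 2.47 and 3.90. With HIF-1α it reached 13.5, 20.3 and 11.4, in the HIF-2α/1α line 21.3, 13.8 and 7.77, with HIF-2α 35.7, 34.6 and 21.1 and in the HIF-1α/2α line 45.6, 30.9 and 39.1. All 12 lay above the WT libraries, while those with different IDRs overlapped in part. The IDR effect of 1.23 (SE 0.37, adjusted p = 0.0084) was lost without HIF-1α/2α replicate 1 or 3, HIF-1α replicate 1 or 3, HIF-2α/1α replicate 2 or 3 or HIF-2α replicate 1 or 2 (log2 changes 1.08 to 1.22, adjusted p = 0.0127 to 0.026). The log2 change was 3.18 (SE 0.73, adjusted p = 0.000725) with HIF-1α, lost without WT replicate 2 (log2 change 2.55, adjusted p = 0.0121), and 3.09 (SE 0.74, adjusted p = 0.00118) in the HIF-2α/1α line, lost without HIF-2α/1α replicate 1 or WT replicate 1 or 2 (log2 changes 2.47 to 2.72, adjusted p = 0.0116 to 0.018). It was 4.19 (SE 0.70, adjusted p = 3.14e-06) with HIF-2α and 4.53 (SE 0.69, adjusted p = 5.44e-07) in the HIF-1α/2α line. In batch 1 the HIF-2α libraries held 34.8, 35.5 and 36.1 against 1.65, 4.84 and 0 in WT cells, a change of 4.04 (SE 1.03, adjusted p = 0.00796) that was lost without HIF-2α replicate 1, 2 or 3 or WT replicate 1 or 3 (log2 changes 3.42 to 4.05, adjusted p = 0.0186 to 0.0423) and was 5.30 without WT replicate 2. Antisense genes overlap PLXNA4 too. The HIF-1α libraries of that batch, at 33.1, 30.5 and 16.4, were also above WT but not called (3.63, SE 1.02, adjusted p = 0.0241), although DESeq2 (adjusted p = 0.002), the replicate block (0.00758) and the fit without the low-count filter (0.00337) called them. All libraries of the other 6 groups lay between 0 and 7.71.

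PLXNB3, the receptor of SEMA5A, was the third plexin called in all 4 lines of the second batch, from 1058 ± 117 normalized counts in WT cells (SD, n = 3) to 2735 ± 272 with HIF-1α, 2482 ± 530.0 in the HIF-2α/1α line, 3435 ± 208 with HIF-2α and 2621 ± 307 in the HIF-1α/2α line. The log2 changes ran from 1.23 to 1.70. Its first-batch levels of 4484 ± 682 with HIF-1α and 3704 ± 548 with HIF-2α, beside 1944 ± 254 in WT cells, were not called against WT (1.21 (SE 0.32, adjusted p = 0.016) and 0.93 (SE 0.32, adjusted p = 0.052)), and HIF-2α exceeded HIF-2αDM (1.28, SE 0.32, adjusted p = 0.00934), a call lost without HIF-2αDM replicate 1, 2 or 3 or HIF-2α replicate 1, 2 or 3 (log2 changes 1.11 to 1.39, adjusted p = 0.0134 to 0.0728). The PLXNB3 change with HIF-1α in that batch was called by DESeq2 (1.25, adjusted p = 0.00245), with the replicate block (1.24, adjusted p = 0.00014), with the compared groups alone and without the low-count filter. PLXNB3-AS1 and SRPK3 overlap PLXNB3. The other 6 plexins were called in no line of the second batch. PLXNB2 went from 50885 ± 1745 in WT cells to 77049.8 ± 729.8 with HIF-2α (log2 change 0.60, SE 0.049, adjusted p = 5.35e-14), PLXNA1 from 13179 ± 165 to 20642 ± 669 (0.65, SE 0.05, adjusted p = 8.91e-15), and PLXNA3, a partner of neuropilin-2, from 9949 ± 296 to 18794 ± 1259 (0.92, SE 0.067, adjusted p = 1e-15). These 3 changes had small adjusted p but stayed under a fold of 2. PLXNB1, the SEMA4D receptor, had 2328 ± 108 in WT cells and 1912 ± 229.6 with HIF-2α, PLXND1, the SEMA3E receptor, 1832 ± 46.6 and 2299 ± 104, and PLXNC1, the SEMA7A receptor, 59.8 ± 3.32 and 45.3 ± 5.49. In batch 1 PLXND1 rose in HIF-1α R30E, from 2856 ± 571 to 7141 ± 1769.5 (1.32, SE 0.26, adjusted p = 0.00159), a call lost without HIF-1α R30E replicate 3 or WT replicate 1 (log2 changes 1.13 to 1.17, adjusted p = 0.0172 to 0.0198). PLXNA3 fell in the HIF-2α KIN clone, from 14178 ± 1906 to 6704 ± 1394 (-1.08, SE 0.21, adjusted p = 0.000991), a call lost without HIF-2α KIN replicate 1 or 2 or WT replicate 2 (log2 changes -1.01 to -0.98, adjusted p = 0.00901 to 0.0106). PLXNB1, PLXNB2, PLXNA1 and PLXNC1 were called against WT nowhere in that batch, where their WT means were 4546 ± 676, 71962 ± 12066, 22625 ± 4514 and 8.15 ± 4.24.

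Semaphorins moved in both directions. SEMA5B, a transmembrane semaphorin with thrombospondin repeats, had an IDR effect close in size to that of PLXNA2. It held 443, 479.5 and 661 normalized counts in WT cells, 1590.4, 1819 and 836 with HIF-1α and 1061, 994 and 579 in the HIF-2α/1α line. With HIF-2α it reached 5435, 5402 and 4853, and in the HIF-1α/2α line 6511, 6925 and 6234. All 6 libraries with the HIF-2α IDR lay above the other 9, and replicate 3 was the lowest of its group with HIF-1α and in the HIF-2α/1α line, falling into the range of WT in the latter. SEMA5B had an IDR effect of 2.39 (SE 0.11, adjusted p = 1.08e-22). Against WT, HIF-2α gave 3.31 (SE 0.16, adjusted p = 1.8e-21) in this batch and 3.25 (SE 0.49, adjusted p = 2.12e-05) in the first, where the libraries held 15078, 9934 and 11934 beside 1106, 1765 and 1013 in WT cells. HIF-1α gave 1.43 (SE 0.16, adjusted p = 1.06e-09) here and 1.94 (SE 0.46, adjusted p = 0.00661) in the first batch (5300.4, 7365 and 2193), the latter lost without HIF-1α replicate 1 or 2 or WT replicate 1, 2 or 3 (log2 changes 1.53 to 2.22, adjusted p = 0.0116 to 0.0669). The other first-batch libraries lay between 189 and 3078. Those of HIF-1α R30E, at 189, 718 and 474, were all below WT but not called. The replicate block (-1.54, adjusted p = 0.00284) and the fit without the low-count filter (-1.48) called them.

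SEMA6A, a transmembrane ligand of PLXNA2 and PLXNA4, was also higher with the HIF-2α IDR. Its second-batch counts were 2008, 1925 and 2289 in WT cells, 4251, 4432 and 4013 with HIF-1α and 3387, 3151 and 3375 in the HIF-2α/1α line. They were 9974, 10975 and 10829 with HIF-2α and 10369, 10577 and 9249 in the HIF-1α/2α line, above all others. The IDR effect was 1.47 (SE 0.046, adjusted p = 9.38e-29) and the change with HIF-2α 2.35 (SE 0.067, adjusted p = 3.13e-30). The change with HIF-1α was at the edge of the fold threshold (1.03, SE 0.066, adjusted p = 3.8e-17) and fell under it without HIF-1α replicate 2 or WT replicate 2 (log2 changes 0.98 to 1.00, adjusted p = 2.65e-15 to 1.2e-14). In batch 1 SEMA6A held 2265, 2695 and 2719.7 in WT cells and 14772, 14134 and 16841 with HIF-2α (2.57, SE 0.29, adjusted p = 3.43e-07). It was lower than WT in HIF-1α R30E, at 562, 1009 and 1249 (-1.44, SE 0.28, adjusted p = 0.00136), a call lost without HIF-1α R30E replicate 1 (log2 change -1.18, adjusted p = 0.0167). The HIF-2α KIN clone was higher, at 5624, 5194 and 6517 (1.17, SE 0.28, adjusted p = 0.00575), a call lost without HIF-2α KIN replicate 1 or 3 or WT replicate 1, 2 or 3 (log2 changes 1.08 to 1.22, adjusted p = 0.0169 to 0.0353). The HIF-1α libraries, at 4540, 6307 and 4637, were all above WT but not called. DESeq2 (1.05, adjusted p = 0.00425), the replicate block (1.02, adjusted p = 0.000142), the compared groups alone and the fit without the low-count filter called them. All other libraries of that batch lay between 1587 and 6908. Antisense genes SEMA6A-AS1 and SEMA6A-AS2 overlap SEMA6A, and reads on shared exon stretches may be missing from its count.

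SEMA4B, the most abundant semaphorin of WT cells, rose with HIF-2α in both batches. It held 33776, 33565 and 36448 normalized counts in WT cells of the second batch, 46644, 47013 and 43888 with HIF-1α and 43007, 40355 and 37720.2 in the HIF-2α/1α line. HIF-2α brought it to 73098, 73141 and 67216 and HIF-1α/2α to 74609, 78034 and 71198, with no overlap between the IDRs. The change with HIF-2α was 1.04 (SE 0.052, adjusted p = 2.18e-21) here and 1.12 (SE 0.21, adjusted p = 0.000345) in the first batch (125094, 119758 and 133494 against 50165, 58111 and 66267), whose other libraries lay between 45118 and 121781. Its IDR effect of 0.76 (SE 0.036, adjusted p = 5.72e-22) was under a fold of 2 and not called.

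The secreted class 3 semaphorins SEMA3F, SEMA3A and SEMA3E were lower with the HIF-2α IDR. SEMA3F, a neuropilin-2 ligand known for opposing angiogenesis, had the largest such effect after the sparsely counted UNC5A. It held 1458, 1526 and 1289 normalized counts in WT cells and rose to 4335, 4212 and 3372 with HIF-1α and 4039, 4100.0 and 3039 in the HIF-2α/1α line. It was at 999, 994 and 873 with HIF-2α and at 443, 521 and 386 in the HIF-1α/2α line, the lowest of the batch. SEMA3F thus lay above WT with one IDR and below it with the other, in every library. The changes against WT were 1.48 (SE 0.097, adjusted p = 8.65e-17) with HIF-1α, 1.39 (SE 0.097, adjusted p = 9.82e-16) in the HIF-2α/1α line and -1.67 (SE 0.11, adjusted p = 1.14e-17) in the HIF-1α/2α line, while that with HIF-2α (-0.58, SE 0.10, adjusted p = 5.91e-06) was under the fold threshold. The IDR effect was -2.55 (SE 0.073, adjusted p = 2.99e-30) and the interaction 1.18 (SE 0.14, adjusted p = 4.68e-08). In batch 1 SEMA3F rose from 1347, 2483 and 2065 to 6731, 8913 and 6878 with HIF-1α (1.93, SE 0.33, adjusted p = 0.000173) and to 5487, 7188 and 8873 with HIF-1α R30E (1.87, SE 0.32, adjusted p = 0.000333). Its HIF-2α libraries there held 1799, 1601 and 2062, within the range of WT, and all others lay between 624 and 6208. SEMA3F-AS1 overlaps SEMA3F on the other strand.

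SEMA3A, the neuropilin-1 ligand that collapses growth cones, fell with HIF-2α in both batches. Its WT libraries held 456, 491 and 468 in the second batch, those with HIF-1α 752, 739 and 626 and those in the HIF-2α/1α line 666, 694 and 534. The HIF-2α libraries held 120.0, 92.4 and 130.3 and those in the HIF-1α/2α line 185, 240.3 and 165, all below WT, while every library with the HIF-1α IDR was above WT. For SEMA3A the IDR effect was -2.16 (SE 0.10, adjusted p = 2.82e-22). SEMA3A fell with HIF-2α by a log2 change of -2.04 (SE 0.15, adjusted p = 8.95e-16) here and -2.37 (SE 0.38, adjusted p = 4.88e-05) in the first batch, from 109.8, 123 and 87.1 to 17.4, 32.5 and 12.8. It was also below R27E (125, 153 and 107, -2.64, SE 0.38, adjusted p = 1.74e-05) and below HIF-2αDM (86.8, 107 and 135, -2.41, SE 0.38, adjusted p = 5.05e-05), and the other libraries lay between 54.9 and 298.

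SEMA3E, the ligand of PLXND1, held 115, 142 and 157 in WT cells, 214, 277 and 239.8 with HIF-1α and 117, 173 and 149.8 in the HIF-2α/1α line. It held 69.4, 78.5 and 70.4 with HIF-2α and 88.7, 98.7 and 66.2 in the HIF-1α/2α line. The libraries with the HIF-2α IDR were below all others, and the IDR effect was -1.27 (SE 0.15, adjusted p = 8.9e-10). In batch 1 the HIF-2α libraries held 1.58, 2.95 and 20.2 and those of WT cells 39.6, 31.9 and 35.8. That change (-1.99, SE 0.50, adjusted p = 0.00729) was lost without HIF-2α replicate 1 or 2 or WT replicate 1, 2 or 3 (log2 changes -2.07 to -1.56, adjusted p = 0.0149 to 0.051), and without HIF-2α replicate 3, the highest of its group, it was -3.89. SEMA3E was also below R27E (46.4, 45.3 and 35.3, -2.23, SE 0.51, adjusted p = 0.00403), lost without HIF-2α R27E replicate 1 or 2 or HIF-2α replicate 1 or 2 (log2 changes -2.15 to -1.80, adjusted p = 0.0162 to 0.0339) and at -4.14 without HIF-2α replicate 3. The remaining libraries of that batch lay between 14.5 and 119.5. Other annotated genes overlap SEMA3E on both strands.

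SEMA3B, another secreted semaphorin known as a tumour suppressor, differed by structured domain. It held 2048, 1973 and 2378 in WT cells, 1754, 1862 and 1708 with HIF-1α, 2590.3, 2454 and 2239 in the HIF-2α/1α line and 2666, 2823 and 2485 with HIF-2α. With HIF-1α/2α it fell to 390.4, 488 and 450.2 (-2.27, SE 0.088, adjusted p = 2.54e-25), far below every other library of the batch. The structured-domain effect of 1.52 (SE 0.06, adjusted p = 5.92e-24) and the interaction of 2.14 (SE 0.12, adjusted p = 5.49e-18) thus drew mainly on the HIF-1α/2α line. In batch 1 it fell in the HIF-1β KIN clone, from 3855, 2939 and 3355 to 982, 608 and 1039.8 (-1.95, SE 0.26, adjusted p = 1.88e-05), and its other libraries lay between 1742 and 5444. SEMA3B-AS1 overlaps SEMA3B, and reads on exons of both may be missing from its count.

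SEMA6B, a transmembrane class 6 semaphorin, was lower with the HIF-2α IDR (-1.12, SE 0.16, adjusted p = 1.23e-07), although the highest HIF-2α library overlapped those with the HIF-1α IDR. They held 125, 145 and 157 in WT cells, 238, 150.0 and 182 with HIF-1α and 229, 151 and 196 in the HIF-2α/1α line. They held 95.2, 71.6 and 151 with HIF-2α and 66.3, 77.3 and 73.8 in the HIF-1α/2α line. In batch 1 SEMA6B was the 1 member called higher in all 4 mutant lines, although the calls in HIF-2α R27E (adjusted p = 0.0797) and HIF-1αDM (0.0108) were lost when the compared groups alone were fitted. From 177, 251 and 285 in WT cells it rose to 2121, 1663 and 2546 in HIF-1α R30E (3.15, SE 0.26, adjusted p = 4.37e-09) and to 459, 637 and 671 in HIF-1αDM (1.31, SE 0.24, adjusted p = 0.00364). It rose to 562, 620.2 and 1144 in HIF-2α R27E (1.71, SE 0.25, adjusted p = 0.000173) and to 809.7, 841 and 1003 in HIF-2αDM (1.90, SE 0.25, adjusted p = 3.15e-05). The HIF-1α libraries, at 366, 569 and 479, were all above WT and just under the fold threshold (log2 change 0.99, SE 0.24, adjusted p = 0.00874), and were called by DESeq2 (1.03, adjusted p = 0.00122), with RLE scaling (1.03, adjusted p = 0.00703) and with the replicate block (1.00, adjusted p = 0.000253). Those of HIF-2α, at 329, 270.3 and 341, overlapped WT and were not called (0.40, SE 0.24, adjusted p = 0.313). The HIF-1β KIN clone, at 52.7, 73.4 and 67.5, was below WT (-1.88, SE 0.26, adjusted p = 2.9e-05). The HIF-1αDM call was lost without HIF-1αDM replicate 2 or 3 or WT replicate 1 or 2 (log2 changes 1.13 to 1.35, adjusted p = 0.0229 to 0.0585), and the HIF-2α KIN libraries held 175, 171 and 187.

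**Figure D5:**
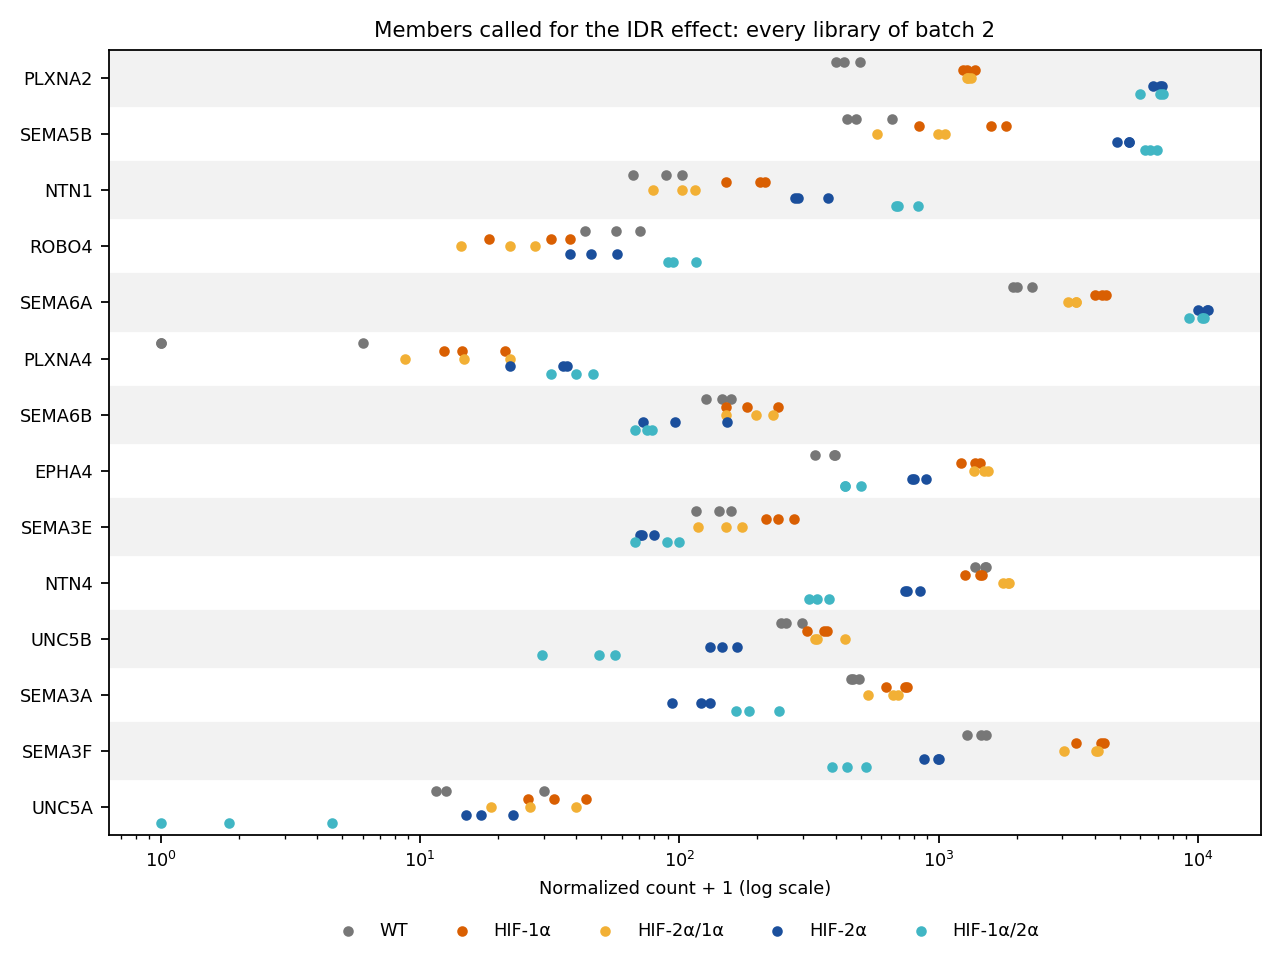
The 14 members called for the IDR effect, in every library of batch 2, from those higher with the HIF-2α IDR at the top to those lower at the bottom. The x axis gives the normalized count plus 1 on a log scale, each point is 1 library and colour gives the line. In 10 of the 14 rows the blue and turquoise points, HIF-2α and HIF-1α/2α, lie apart from the orange and yellow points, HIF-1α and HIF-2α/1α.

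Among the netrins and their UNC5 receptors, NTN1 was higher and NTN4, UNC5A and UNC5B were lower with the HIF-2α IDR. NTN1, the diffusible netrin that attracts or repels depending on the receptor, held 87.6, 65.5 and 101 normalized counts in WT cells, 150.5, 204 and 212 with HIF-1α and 78.1, 101 and 114 in the HIF-2α/1α line. It reached 287, 277 and 373 with HIF-2α and 686, 694 and 833 in the HIF-1α/2α line, above every other library. For NTN1 the IDR effect was 1.82 (SE 0.12, adjusted p = 3.05e-17), and the structured-domain effect of -1.09 (SE 0.12, adjusted p = 7.92e-10) gave the higher level to the HIF-1α structured domain. Its change was 1.17 (SE 0.18, adjusted p = 1.11e-06) with HIF-1α and 1.89 (SE 0.18, adjusted p = 2.04e-12) with HIF-2α. In batch 1 NTN1 ran from 5.23, 8.57 and 3.38 in the HIF-2α KIN clone and 22.6, 10.6 and 24.8 in the HIF-1β KIN clone through 145, 162 and 164 in WT cells to 346, 386 and 583 with HIF-1α and 618, 849 and 1271 with HIF-2α. The changes against WT were -4.82 (SE 0.44, adjusted p = 1.54e-08), -3.00 (SE 0.37, adjusted p = 4.34e-06), 1.48 (SE 0.32, adjusted p = 0.00306) and 2.54 (SE 0.33, adjusted p = 3.44e-06) in that order, and the HIF-1α call was lost without HIF-1α replicate 3 or WT replicate 1, 2 or 3 (log2 changes 1.22 to 1.51, adjusted p = 0.0137 to 0.0264). The mutant lines were not called against WT, apart from R30E with the replicate block (-1.12, adjusted p = 0.00157), and held 64.8, 52.2 and 107 in HIF-1α R30E, 113, 146 and 163 in HIF-1αDM, 75.2, 93.4 and 161 in HIF-2α R27E and 108, 101 and 123 in HIF-2αDM.

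NTN4, the laminin-like netrin of basement membranes, was lower with the HIF-2α IDR. It held 1523, 1509 and 1382 in WT cells, 1475, 1439 and 1265 with HIF-1α and 1777, 1872 and 1844 in the HIF-2α/1α line, then 751, 738 and 846 with HIF-2α and 337, 376 and 315 in the HIF-1α/2α line. No library with the HIF-2α IDR reached the lowest of the others, and the IDR effect was -1.63 (SE 0.063, adjusted p = 3.09e-25). Against WT the change was called in the HIF-1α/2α line (-2.10, SE 0.092, adjusted p = 2.27e-23) and stayed under a fold of 2 with HIF-2α (-0.92, SE 0.087, adjusted p = 3.21e-12). In batch 1 the HIF-2α libraries (351, 477 and 371) were below those of HIF-2αDM (772, 1062 and 927, -1.20, SE 0.20, adjusted p = 9.86e-05) and of R27E (771, 1046 and 682, -1.06, SE 0.20, adjusted p = 0.000526). The R27E call was lost without HIF-2α R27E replicate 2 or HIF-2α replicate 1 (log2 changes -0.97 to -0.83, adjusted p = 0.00685 to 0.0118). WT libraries held 793, 812 and 557, and the others lay between 441 and 1055.

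UNC5B, a netrin receptor also known from vessel guidance, held 256, 245 and 296 in WT cells, 368, 359 and 310.0 with HIF-1α and 435, 331 and 339.5 in the HIF-2α/1α line. It held 166, 144 and 130.3 with HIF-2α and 48.1, 28.6 and 55.3 in the HIF-1α/2α line, all below WT. UNC5B had an IDR effect of -2.14 (SE 0.13, adjusted p = 1.33e-18) and the interaction 1.63 (SE 0.25, adjusted p = 8.86e-06). HIF-1α/2α lowered it by a log2 change of -2.57 (SE 0.19, adjusted p = 2.31e-15), whereas the change with HIF-2α (-0.85, SE 0.17, adjusted p = 4.96e-05) was under the fold threshold. In batch 1 UNC5B fell in both clones, from 377, 297 and 479 to 51.7, 16.0 and 86.3 in HIF-1β KIN (-2.89, SE 0.42, adjusted p = 5.82e-05) and 78.5, 21.4 and 58.3 in HIF-2α KIN (-2.85, SE 0.42, adjusted p = 2.9e-05). Without HIF-1β KIN replicate 3 the former was -3.51. The HIF-2α libraries (137, 133 and 201) were all below WT but not called against it. The replicate block (-1.28, adjusted p = 0.000424), the compared groups alone (-1.27, adjusted p = 0.00335) and the fit without the low-count filter called them. They were below those of R27E (536, 323 and 683, -1.70, SE 0.40, adjusted p = 0.00503), lost without HIF-2α R27E replicate 1 or 3 or HIF-2α replicate 1 or 2 (log2 changes -1.64 to -1.44, adjusted p = 0.0204 to 0.0349). They were also below those of HIF-2αDM (526, 495 and 494, -1.68, SE 0.40, adjusted p = 0.00528), lost without HIF-2αDM replicate 1, 2 or 3 or HIF-2α replicate 1, 2 or 3 (log2 changes -1.90 to -1.57, adjusted p = 0.0102 to 0.035). The HIF-1α, R30E and HIF-1αDM libraries held 298, 359.6 and 479.9, 279, 228 and 393 and 660.3, 517 and 716. UNC5B-AS1 overlaps UNC5B, and reads on exons of both may be missing from its count.

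UNC5A and UNC5C are low in these cells. UNC5A held 11.6, 10.5 and 29.1 normalized counts in WT cells, 31.8, 25.2 and 42.7 with HIF-1α, 17.7, 38.8 and 25.5 in the HIF-2α/1α line, 21.8, 16.2 and 14.1 with HIF-2α and 0.829, 3.57 and 0 in the HIF-1α/2α line. The HIF-1α/2α libraries together held 4 raw counts beside 54 in WT cells, a ratio of 12.2 with a 95% interval of 4.52 to 46.6 for counting error alone. The fitted log2 change was -3.51 (SE 0.73, adjusted p = 0.000104), moving to -4.85 without HIF-1α/2α replicate 2 and to -2.90 without WT replicate 3. The IDR effect (-2.57, SE 0.44, adjusted p = 5.24e-06), the structured-domain effect (1.65, SE 0.45, adjusted p = 0.00635) and the interaction (3.82, SE 0.89, adjusted p = 0.00268) were all called and all rest on that line. The structured-domain call was lost without HIF-1α/2α replicate 1 or 3, HIF-1α replicate 1 or 2, HIF-2α/1α replicate 2 or HIF-2α replicate 1 (log2 changes 1.39 to 1.63, adjusted p = 0.0135 to 0.0283), and the interaction without HIF-1α/2α replicate 1 or 3 or HIF-2α replicate 1 (log2 changes 3.31 to 3.61, adjusted p = 0.0102 to 0.0123). Without HIF-1α/2α replicate 2, the IDR effect was -3.24, the structured-domain effect 2.32 and the interaction 5.16. In batch 1 UNC5A rose from 18.2, 17.4 and 18.3 to 73.7, 125 and 51.9 with HIF-1α (2.20, SE 0.46, adjusted p = 0.00221), lost without HIF-1α replicate 2 or WT replicate 1, 2 or 3 (log2 changes 1.80 to 2.21, adjusted p = 0.013 to 0.0259), and to 115, 149 and 199.7 in HIF-1α R30E (3.10, SE 0.47, adjusted p = 6.8e-05), and its other libraries lay between 12.6 and 105. HK3 overlaps UNC5A on the other strand. UNC5C held 5.78, 4.85 and 4.01 in WT cells, 3.86, 4.84 and 10.4 with HIF-1α, 20.1, 11.2 and 20.0 in the HIF-2α/1α line, 20.8, 31.2 and 21.1 with HIF-2α and 9.12, 2.38 and 4.34 in the HIF-1α/2α line. Libraries with the HIF-2α structured domain were above those with the HIF-1α one, an effect of 1.76 (SE 0.45, adjusted p = 0.0038) lost without HIF-1α/2α replicate 2, HIF-1α replicate 1 or 2, HIF-2α/1α replicate 1 or 3 or HIF-2α replicate 2 (log2 changes 1.60 to 1.70, adjusted p = 0.0101 to 0.0152). The call with HIF-2α (2.29, SE 0.65, adjusted p = 0.00405) was lost without HIF-2α replicate 2 or WT replicate 1, 2 or 3 (log2 changes 2.06 to 2.42, adjusted p = 0.011 to 0.0259), and in the first batch its libraries lay between 0 and 18.0. UNC5C-AS1 overlaps UNC5C.

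Of the Robo and Slit genes, ROBO3, ROBO4 and SLIT2 were called. ROBO4, the Robo receptor best known from endothelium, held 42.4, 69.5 and 56.1 normalized counts in WT cells, 30.9, 17.4 and 37.0 with HIF-1α, 21.3, 26.7 and 13.3 in the HIF-2α/1α line, 44.6, 36.9 and 56.3 with HIF-2α and 93.7, 89.2 and 115 in the HIF-1α/2α line. Its IDR effect of 1.47 (SE 0.24, adjusted p = 1.82e-06) was called although 1 HIF-1α library exceeded 1 HIF-2α library. The fall in HIF-2α/1α (-1.44, SE 0.34, adjusted p = 0.00111) was lost without HIF-2α/1α replicate 3 or WT replicate 2 (log2 changes -1.25 to -1.21, adjusted p = 0.0124 to 0.0154). In batch 1 ROBO4 was called against WT in HIF-1α R30E with the replicate block alone (-1.91, adjusted p = 0.00333), and its libraries lay between 8.04 and 109. ROBO3 rose in the HIF-1α/2α line (399, 434 and 502 against 159.9, 129 and 161, 1.57, SE 0.15, adjusted p = 1.04e-11). SLIT2, a repellent ligand of ROBO1 and ROBO2, held 268, 327 and 352 in WT cells, 474, 476 and 545 with HIF-1α, 390.3, 462 and 458 in the HIF-2α/1α line and 369, 354 and 337 with HIF-2α. With HIF-1α/2α it stood well above the rest at 1087, 1021 and 871 (1.65, SE 0.12, adjusted p = 4.58e-16), and the interaction was -1.30 (SE 0.17, adjusted p = 1.36e-07). In batch 1 SLIT2 rose in HIF-1α R30E from 188, 219 and 235 to 625, 608 and 747 (1.62, SE 0.24, adjusted p = 5.33e-05), with all others between 218 and 486.

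EPHB1, EPHB3 and EPHB4 rose in all lines without a mutated transgene, in both batches, and their IDR effects were not called. EPHB1, a receptor of B ephrins, held 93.4, 84.9 and 64.1 normalized counts in WT cells, 937, 939 and 1029 with HIF-1α, 452, 391 and 452 in the HIF-2α/1α line, 291, 367 and 329.8 with HIF-2α and 607, 498 and 589 in the HIF-1α/2α line. The HIF-1α libraries were the highest, with a log2 change of 3.58 (SE 0.14, adjusted p = 8.85e-25) beside 2.02 (SE 0.14, adjusted p = 4.49e-16) with HIF-2α. Its IDR effect of -0.58 (SE 0.085, adjusted p = 2.47e-07) and structured-domain effect of -0.97 (SE 0.085, adjusted p = 2.53e-12) stayed under a fold of 2. In batch 1 EPHB1 went from 51.2, 61.9 and 33.7 in WT cells to 669, 682 and 690.2 with HIF-1α (3.80, SE 0.35, adjusted p = 2.23e-08) and 205, 275 and 282 with HIF-2α (2.38, SE 0.34, adjusted p = 1.15e-05). Mutant lines were above WT as well, at 518, 804 and 577 in HIF-1α R30E (3.70, SE 0.35, adjusted p = 4.79e-08), 165, 194 and 177 in HIF-1αDM (1.87, SE 0.34, adjusted p = 0.00252) and 291, 369.9 and 318 in HIF-2αDM (2.74, SE 0.34, adjusted p = 1.72e-05), with HIF-2α R27E at 108, 149 and 68.7 and called by DESeq2 alone (1.15, adjusted p = 0.00441). The HIF-1αDM call was lost without HIF-1αDM replicate 2 or WT replicate 1 or 3 (log2 changes 1.66 to 1.91, adjusted p = 0.0161 to 0.0316). Both clones were below WT, at 1.08, 3.19 and 10.3 in HIF-1β KIN (-3.21, SE 0.44, adjusted p = 2.1e-05, -4.43 without its replicate 3) and 6.54, 15.7 and 6.76 in HIF-2α KIN (-2.37, SE 0.41, adjusted p = 0.000221).

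EPHB4, the receptor of ephrin-B2 that marks veins, held 55.9, 60.6 and 39.1 in WT cells, 238, 257 and 247 with HIF-1α, 121, 129 and 134 in the HIF-2α/1α line, 189, 217 and 248 with HIF-2α and 385, 469.9 and 438 in the HIF-1α/2α line. All 4 lines lay above WT without overlap, with log2 changes from 1.29 (SE 0.19, adjusted p = 3.74e-07) in HIF-2α/1α to 3.04 (SE 0.18, adjusted p = 6.31e-19) in HIF-1α/2α. In batch 1 it rose from 47.9, 68.7 and 72.4 to 592, 757 and 696 with HIF-1α (3.43, SE 0.45, adjusted p = 5.39e-06) and 354, 329 and 594 with HIF-2α (2.76, SE 0.44, adjusted p = 4.99e-05), while the 4 mutant lines and the 2 clones lay between 27.9 and 211. None of these 6 was called against WT, but the HIF-2α KIN clone was with the replicate block (1.11, adjusted p = 0.00198) and without the low-count filter (1.15, adjusted p = 0.00809). HIF-1α exceeded R30E (2.53, SE 0.43, adjusted p = 0.000354) and HIF-1αDM (3.60, SE 0.45, adjusted p = 7.03e-06, 4.21 without HIF-1αDM replicate 3), and HIF-2α exceeded R27E (2.89, SE 0.44, adjusted p = 4.6e-05) and HIF-2αDM (2.97, SE 0.44, adjusted p = 2.9e-05). SLC12A9 overlaps EPHB4 on the other strand, and reads on exons of both may be missing from the EPHB4 count. EPHB1, EPHA4, EPHA6, NTN1, NTN4 and ROBO4 overlap unnamed antisense genes or pseudogenes.

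EPHB3 had no count in any WT library of either batch. It held 7.72, 11.6 and 7.58 normalized counts with HIF-1α, 16.6, 2.59 and 9.99 in the HIF-2α/1α line, 0, 5.77 and 8.22 with HIF-2α and 4.97, 1.19 and 10.8 in the HIF-1α/2α line. Taking 3 counts per WT library as the floor, the group means were 2.98-fold, 3.23-fold, 1.55-fold and 1.89-fold higher in these lines. These folds make no allowance for the counting error of the means, and the lowest library held 0 raw counts with HIF-2α and 1 in the HIF-1α/2α line. All 4 were called (adjusted p = 0.00174, 0.00157, 0.0086 and 0.00429), and each call was lost when some library was left out. These were WT replicate 2 for HIF-1α (adjusted p = 0.0118), HIF-2α/1α replicate 1 or WT replicate 2 for HIF-2α/1α (0.0112 to 0.0117), HIF-2α replicate 2 or 3 or any WT library for HIF-2α (0.0221 to 0.0436), and HIF-1α/2α replicate 3 or any WT library for HIF-1α/2α (0.0158 to 0.027). In batch 1 EPHB3 held 20.8, 16.7 and 21.9 with HIF-1α, a mean 6.81-fold above the WT floor (adjusted p = 0.00126). It held 1.58, 7.39 and 9.56 with HIF-2α, a mean 2.13-fold above that floor (adjusted p = 0.00769). The HIF-2α call was lost without HIF-2α replicate 2 or 3 or any WT library (adjusted p = 0.019 to 0.0309). Its other first-batch libraries lay between 0 and 9.04.

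EPHA4, which binds ephrins of both classes, was lower with the HIF-2α IDR. It held 333, 399 and 393 in WT cells, 1440.0, 1374 and 1216 with HIF-1α, 1551, 1491 and 1366 in the HIF-2α/1α line, 791, 800.1 and 896 with HIF-2α and 499.9, 435 and 433 in the HIF-1α/2α line. Every transgenic library was above WT and the IDRs did not overlap (IDR effect -1.19, SE 0.068, adjusted p = 3.27e-19). The changes against WT were 1.84 (SE 0.099, adjusted p = 9.41e-20) with HIF-1α and 1.14 (SE 0.10, adjusted p = 3.42e-13) with HIF-2α. In batch 1 EPHA4 rose from 187, 176 and 152 to 759, 615 and 352 with HIF-1α (1.75, SE 0.36, adjusted p = 0.00162), lost without HIF-1α replicate 1 or WT replicate 2 or 3 (log2 changes 1.49 to 1.77, adjusted p = 0.0104 to 0.0147), and to 633, 831 and 515 in the HIF-2α KIN clone (1.94, SE 0.36, adjusted p = 0.000468). The other libraries there lay between 156 and 628. Those of HIF-1α R30E, at 228, 628 and 376, were all above WT but not called. DESeq2 (1.29, adjusted p = 0.00508), the replicate block (1.24, adjusted p = 0.00205) and the fit without the low-count filter called them. EPHA6, a receptor of A ephrins, held 128, 146 and 112 in WT cells, 162, 167 and 146 with HIF-1α, 122, 119.8 and 133 in the HIF-2α/1α line, 111, 156 and 156 with HIF-2α and 76.3, 86.8 and 70.5 in the HIF-1α/2α line. The HIF-1α/2α libraries were the lowest, and the interaction of 1.20 (SE 0.28, adjusted p = 0.00308) was lost without HIF-1α replicate 2 or HIF-2α replicate 2 or 3 (log2 changes 1.12 to 1.16, adjusted p = 0.0108 to 0.0137). In batch 1 EPHA6 rose in the HIF-2α KIN clone, from 104, 75.5 and 91.4 to 175, 188 and 243 (1.16, SE 0.28, adjusted p = 0.00684), lost without HIF-2α KIN replicate 1, 2 or 3 or WT replicate 1, 2 or 3 (log2 changes 1.01 to 1.27, adjusted p = 0.011 to 0.0487), with the others between 71.3 and 208.

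EFNA1, the GPI-anchored ligand of EPHA2, was the 1 member called lower in all 4 lines of the second batch. It held 1539.8, 1669.8 and 1246 in WT cells, 607, 727 and 724 with HIF-1α, 595, 586 and 701 in the HIF-2α/1α line, 333, 449 and 495 with HIF-2α and 545, 575 and 717 in the HIF-1α/2α line, with no overlap with WT. The log2 changes ran from -1.12 (SE 0.12, adjusted p = 1.96e-10) with HIF-1α to -1.81 (SE 0.12, adjusted p = 1.26e-16) with HIF-2α. EPHA2, its receptor, was called in none of the lines. In batch 1 EFNA1 fell from 2317, 2493 and 2152 to 1191, 1149 and 623 with HIF-1α (-1.23, SE 0.24, adjusted p = 0.000989), lost without HIF-1α replicate 3 (log2 change -0.99, adjusted p = 0.0107), and to 885, 693 and 707 with HIF-2α (-1.61, SE 0.24, adjusted p = 2.8e-05). HIF-1α R30E, at 1049, 1387 and 899.6, was also below WT (-1.06, SE 0.24, adjusted p = 0.00551), a call lost without HIF-1α R30E replicate 1 or 3 or WT replicate 1, 2 or 3 (log2 changes -1.11 to -0.93, adjusted p = 0.0122 to 0.0517), and the other groups lay between 1188 and 2489.5. Of the remaining ephrins, EFNA4 fell in HIF-1α/2α (-1.01, SE 0.10, adjusted p = 1.37e-11), a call at the edge of the fold threshold that was lost without HIF-1α/2α replicate 2 or WT replicate 2 or 3 (log2 changes -0.99 to -0.95, adjusted p = 5.74e-10 to 2.15e-09).

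The mutant lines and knock-in clones of the first batch differed in how many members they moved. HIF-1α R30E raised 7 members and lowered 2 (2.04% and 0.572% of all genes), with EPHB1, SEMA6B, UNC5A and SEMA3F changing most and SEMA6A and EFNA1 lower. With the block EPHA4, SEMA3A and SEMA3E were added to its higher and NTN1, ROBO4 and SEMA5B to its lower members. HIF-1αDM raised 2, SEMA6B and EPHB1, and lowered none (0.453% and 0.00427% of all genes). With the replicate number as a block, since libraries of equal number deviated together here, 4 members were called in HIF-1αDM, SEMA3F (1.23, adjusted p = 7.63e-05) and UNC5A (2.10, adjusted p = 0.00154) being added. HIF-2α R27E raised SEMA6B alone (0.449% and 0.047%), and 2 members with the block. HIF-2αDM raised EPHB1 and SEMA6B and lowered none (0.44% and 0.0342%). The HIF-1β KIN clone raised none and lowered 5 (0.393% and 0.982%), namely EPHB1, NTN1, UNC5B, SEMA3B and SEMA6B, and DESeq2 called 1 higher beside 5 lower. With the block 2 were higher, EPHA4 (1.13, adjusted p = 0.00771) and SEMA6A (1.16, adjusted p = 5.68e-05), as they were without the low-count filter. The HIF-2α KIN clone raised 5 and lowered 6 (2.35% and 1.79%). NTN1, PLXNA2, UNC5B and EPHB1 fell most there, SEMA3C fell by less (-1.47, SE 0.24, adjusted p = 0.000101), and the largest rises were those of SEMA3G (2.53, SE 0.63, adjusted p = 0.00773), EPHA4 (1.94), SEMA6C (1.40, SE 0.28, adjusted p = 0.00102) and SEMA6A (1.17). The SEMA3G call was lost without HIF-2α KIN replicate 1 or 3 or WT replicate 1, 2 or 3 (log2 changes 2.13 to 2.81, adjusted p = 0.0203 to 0.0543), and that of SEMA6C without WT replicate 3 (log2 change 1.28, adjusted p = 0.0116). With the block EPHB4 was added to the higher and SEMA3F (-1.25, adjusted p = 1.07e-05) and SEMA4A (adjusted p = 0.0083) to the lower members of this clone. EPHB1, NTN1 and UNC5B were called lower in both clones.

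Unmutated proteins were also set against their own mutants. HIF-1α exceeded R30E in 4 members and was below it in 1 (1.75% of all genes in either direction). SEMA5B (3.42, SE 0.49, adjusted p = 3.74e-05), NTN1 (2.55, SE 0.34, adjusted p = 1.29e-05), EPHB4 and SEMA6A (2.45, SE 0.29, adjusted p = 2.09e-06) were the higher ones, and SEMA6B the lower (-2.16, SE 0.25, adjusted p = 1.13e-06). Against HIF-1αDM it was higher in 3 and lower in 1 (1.37% of all genes). EPHB4, EPHB1 (1.93, SE 0.32, adjusted p = 0.000392) and NTN1 (1.64, SE 0.33, adjusted p = 0.0028) were higher and EFNA1 lower (-1.11, SE 0.24, adjusted p = 0.00689). The NTN1 call was lost without HIF-1αDM replicate 1 or 2 or HIF-1α replicate 3 (log2 changes 1.38 to 1.67, adjusted p = 0.0151 to 0.0354), and the EFNA1 call without HIF-1αDM replicate 1, 2 or 3 or HIF-1α replicate 2 or 3 (log2 changes -1.23 to -0.86, adjusted p = 0.0106 to 0.0581). HIF-2α exceeded R27E in 7 members and was below it in 6 (3.63% of all genes), where DESeq2 gave 9 and 5 and the block added EPHB1 (1.25, adjusted p = 0.00048) and SEMA3F (-1.03, adjusted p = 0.000159). NTN1 (3.06, SE 0.34, adjusted p = 4.18e-07), PLXNA2, EPHB4 and SEMA6A (2.51, SE 0.29, adjusted p = 7.35e-07) were furthest above R27E, and SEMA3A, SEMA3E, UNC5B and SEMA6B (-1.31, SE 0.24, adjusted p = 0.000574) furthest below. The SEMA6B call was lost without HIF-2α R27E replicate 3 (log2 change -0.91, adjusted p = 0.00808). Against HIF-2αDM it was higher in 7 and lower in 5 (3.96% of all genes). SEMA5B (3.82, SE 0.50, adjusted p = 4.28e-06), PLXNA2, NTN1 (3.04, SE 0.34, adjusted p = 4.39e-07) and EPHB4 were furthest above it, and SEMA3A, UNC5B, SEMA6B (-1.50, SE 0.25, adjusted p = 9.86e-05) and EFNA1 (-1.38, SE 0.24, adjusted p = 0.000254) furthest below.

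HIF-1α and HIF-2α lines were measured in both batches. Called in the same direction in both were 8 members higher and EFNA1 lower for HIF-1α, and 9 higher and 2 lower (EFNA1 and SEMA3A) for HIF-2α, of 59 tested in both. Of all genes tested in both batches, 2.71% were so called higher and 0.314% lower for HIF-1α, and 3.26% and 1.39% for HIF-2α. EPHB1, EPHB3, EPHB4, NTN1, PLXNA2 and SEMA5B were higher in both batches with both proteins. A joint fit to 18 libraries tested whether each response differed between the batches. No member was called by edgeR with Benjamini-Hochberg adjustment for HIF-1α (0.00374% of all genes) or for HIF-2α (0%). At an unadjusted p under 0.05 edgeR gave 8 of 59 for HIF-1α and 11 of 59 for HIF-2α, beside 5.43% and 10.7% of all genes. DESeq2 called 0 and 0, with 5 and 9 at an unadjusted p under 0.05, beside 3.86% and 8.35% of all genes. The batches differ in RNA extraction and library preparation, whose part in these differences cannot be told apart from that of the cultures. The gene called for HIF-1α was HIF1A itself, whose reads include those of the transgene. Its mean went from 242 in WT cells to 3038 with HIF-1α in batch 1, and from 293 to 13161 in batch 2. The joint fit gave it a difference of 1.68 (SE 0.23, adjusted p = 0.00633), beside -0.013 (SE 0.18) for EPAS1 with HIF-2α. The part of transgene level in the other responses was not tested.

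Summed over a family on the RPKM scale, the level of semaphorins lay between 149 and 155 in the WT libraries of the second batch, between 165 and 181 with the HIF-1α IDR and between 237 and 256 with the HIF-2α IDR, with SEMA4B as the largest single part. UNC5 receptors lay between 0.432 and 0.563 in WT cells and between 0.0583 and 0.0960 in the HIF-1α/2α line. The netrins, mostly NTN4 in WT cells, lay between 3.71 and 4.07 in WT cells and between 2.06 and 2.83 with the HIF-2α IDR. Plexins lay between 105 and 110.3 in WT cells and between 129.8 and 175 over the 4 lines. These sums are descriptions without a test.

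SEMA3D and SEMA4A were also called against WT in the HIF-1α/2α line. SEMA3D held 4.97, 11.9 and 8.68 normalized counts and 0 in every WT library, a mean 2.83-fold above the floor of 3 counts per WT library (adjusted p = 0.00651). SEMA4A rose from 6.74, 5.66 and 7.02 to 9.95, 50.0 and 24.9 (2.09, SE 0.65, adjusted p = 0.00896). Both calls rest on few reads. That of SEMA3D was lost without HIF-1α/2α replicate 2 or 3 or any WT library (adjusted p = 0.0149 to 0.0272), and that of SEMA4A without HIF-1α/2α replicate 2 or 3 or WT replicate 1, 2 or 3 (log2 changes 1.40 to 2.16, adjusted p = 0.0112 to 0.145).

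The partners of these receptors were read from a list of 40 co-receptors, further ligands and cytoplasmic transducers, chosen like the members with earlier results of these data known, of which 38 could be tested in the second batch. HIF-1α raised 6 and lowered none, beside the 3.9% and 0.484% of all genes given above. Among them were SRGAP3, a GTPase-activating protein that binds Robo, with at most 2 counts in a WT library and a mean of 11.2 normalized counts with HIF-1α (adjusted p = 0.00601), FLRT3, an UNC5 ligand (log2 change 2.82, SE 0.60, adjusted p = 0.000261, like the values that follow), VAV3, an exchange factor downstream of Eph receptors (1.90, SE 0.34, adjusted p = 1.77e-05), and NTNG2, a membrane-anchored netrin relative (1.69, SE 0.18, adjusted p = 3.78e-10). HIF-2α/1α raised FLRT3 (2.43, SE 0.61, adjusted p = 0.00192) and NTNG2 (1.67, SE 0.18, adjusted p = 6.8e-10) and lowered none (2.98% and 0.508% of all genes). HIF-2α raised NTNG2 (2.31, SE 0.18, adjusted p = 1.16e-14) and DPYSL2, a collapsin response mediator that acts downstream of SEMA3A (1.48, SE 0.061, adjusted p = 2.92e-24). It lowered ABLIM1 (-1.38, SE 0.06, adjusted p = 2.36e-23) and ENAH (-1.04, SE 0.054, adjusted p = 1.07e-20), which both bind actin or its regulators (5.45% and 2.13% of all genes). HIF-1α/2α raised 5 and lowered 4 (5.1% and 2.68% of all genes), the former led by NTNG2 (3.68), FES (2.58), FLRT3 (2.53) and DPYSL2 (1.98), the latter being L1CAM (-2.11), NGEF (-2.01), ENAH (-1.65) and ABLIM1 (-1.57).

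Across the IDRs, 3 of the 38 partners were called, 1 higher and 2 lower with the HIF-2α IDR (1.9% and 2.5% of all genes). L1CAM, an adhesion molecule that joins neuropilin-1 in the SEMA3A receptor, was lower with the HIF-2α IDR, with means of 1853 with HIF-2α and 592 in the HIF-1α/2α line beside 7639 with HIF-1α and 4117 in the HIF-2α/1α line (-2.42, SE 0.064, adjusted p = 1.3e-31). NGEF, the exchange factor ephexin that acts downstream of EPHA4, was lower too (-1.31, SE 0.091, adjusted p = 3.18e-16), and NTNG2 was higher (1.31, SE 0.11, adjusted p = 2.37e-13). The structured-domain effect was called for VAV3 alone (-1.10, SE 0.23, adjusted p = 0.000341, with 1.04% of all genes called), and the interaction (1.18%) for L1CAM (2.54, SE 0.13, adjusted p = 9.5e-20) and NTNG2 (-1.36, SE 0.22, adjusted p = 2.44e-05). The neuropilins were not called. NRP1 lay between 5258 and 11981 normalized counts over the batch, and NRP2 had means of 14056 with HIF-2α and 15962 in the HIF-1α/2α line beside 25758 with HIF-1α and 24930.1 in the HIF-2α/1α line. DCC, the attractive netrin receptor, had at most 4.44 normalized counts in any library, while its relative neogenin (NEO1) had means of 3239.8 in WT cells and 4691 with HIF-2α. In batch 1 of 35 partners tested, HIF-1α raised 6 and lowered none (3.27% and 0.517% of all genes), and HIF-2α raised 3 and lowered 4 (3.78% and 1.94%).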

How the data were processed

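Poly-A RNA was sequenced from 786-O cells in 2 batches of 27 and 15 libraries, each group with 3 biological replicates. The deposited values are raw read counts per gene: per the labels and the study's methods, the authors aligned reads to hg38 with STAR and counted them with HTSeq in union mode without using strand (the submitters' processing notes name STAR 2.7 and HTSeq 0.11.1), with no normalization. Transcript lengths for RPKM and overlapping genes were taken from GENCODE annotation on GRCh38, and promoter sequences from RefSeq (GRCh38.p14).

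Within each batch, counts were scaled by TMM (factors 0.822 to 1.16 and 0.963 to 1.03), genes whose normalized counts averaged under 0.5 were dropped (leaving 23410 and 28724 genes), and all groups entered 1 quasi-likelihood fit in edgeR. Calls needed a Benjamini-Hochberg adjusted p, over all genes tested, no higher than 0.01 and a difference of 2-fold or more. For the difference between batches, 18 libraries of WT, HIF-1α and HIF-2α cells were fitted jointly. Normalized counts are counts divided by the scaled library size and multiplied by its mean in the batch, and the fold of a gene without counts in WT cells was taken against a floor of 3 counts per library. Intervals cover counting error only, and folds against the floor make no allowance for the counting error of the line's mean. Alternatives were DESeq2, RLE scaling, no low-count filter, the compared groups alone, the replicate number as a block and leaving out each library. Scripts were tested on simulated data. The fits were run in R 4.3.3 with edgeR 4.0.16 (on limma 3.58.1), and the alternative with DESeq2 1.42.0.

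Libraries of the first batch with the same replicate number deviated together from their group means, with a mean correlation across genes of 0.244. It was 0.148 for number 1, 0.155 for number 2 and 0.429 for number 3, and the lowest pair, of number 1, was at -0.10. The mean of -0.121 for other numbers follows from taking deviations from group means and is no separate comparison. Every pair exceeded 0.1 in 6 of the comparisons. In the second batch the mean correlation was 0.00499.

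Members were chosen by symbol, and the members and the lists of markers and partners were chosen with earlier results of these data known. Named with all libraries of the second batch were PLXNA2, the members called for the IDR effect, the structured-domain effect or the interaction, and those that HIF-1α or HIF-2α moved the same way in both batches. In the first batch the libraries of WT cells and of groups where the member was called are given, with the others as a range. For other comparisons at most 4 called members per direction were named, all plexins were named, and of the partners at most 4 per direction. EFNA4, ROBO3, SEMA3C, SEMA3D, SEMA4A and SEMA6C were named among the calls, some after their values were seen. One ephrin gene is not reported here.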

Additional observations from a re-analysis of the deposited data

Results flagged for a closer look

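The interaction tests whether swapping the IDR has the same effect on both structured domains, and 6 members passed it in edgeR after adjustment over all genes. The log2 difference, the IDR effect on the HIF-2α structured domain minus that on the HIF-1α structured domain, was 3.82 for UNC5A, 2.14 for SEMA3B, 1.63 for UNC5B, 1.20 for EPHA6, 1.18 for SEMA3F and -1.30 for SLIT2. In all 6 the HIF-1α/2α line held the extreme libraries of the second batch, lowest for the 5 with a positive value and highest for SLIT2. The part of that line itself cannot be told apart from that of its construct. The UNC5A value rests on 4 raw counts in that line, and DESeq2 gave it no adjusted p.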

How the results depend on the processing

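Of 170 calls of members over 19 comparisons, none changed direction under any alternative. Past the threshold no longer were 2 with DESeq2 (SEMA4A and NTN4), 1 with RLE scaling (NTN4), 2 without the low-count filter (EPHA6 and SEMA3G) and 1 with the replicate block (SEMA3D). With the compared groups alone 14 were lost, among EPHB1, EPHB3, EPHA6, NTN4, PLXNA4, SEMA3E, SEMA3G, SEMA6B and SEMA7A (edgeR adjusted p = 0.0106 to 0.126). DESeq2 gave no adjusted p for 3 (SEMA3D, UNC5A and UNC5C). In every refit without 1 library, 122 calls were kept. The count for HIF-1α against WT in the first batch was 10, beside 16 with DESeq2 and 5 to 9 with a library left out. That for HIF-1αDM was 2, beside 4 with DESeq2, 4 without the filter, 1 with the compared groups alone, 4 with the replicate block and 0 to 2 with a library left out. That for HIF-2α R27E was 1, beside 3 with DESeq2, 2 without the filter, 0 with the compared groups alone and 2 with the block. HIF-1α against HIF-1αDM gave 4, beside 7 without the filter, 7 with the block and 2 to 4 with a library left out. Numbers did not pair HIF-1α R30E with WT libraries, or HIF-1α with HIF-1αDM, by the correlation of every pair, and with the block the R30E count went from 9 to 15. The HIF-2α KIN count of 11 was 7 to 10, and the structured-domain count of 4 was 2 to 5, with a library left out. With the block, 1 member differed between batches for HIF-1α (EPHB4) and 1 for HIF-2α (SEMA6B), beside 0 and 0. The block moved no other count by more than 1.5 times. The causes were not tested. Partner genes were not refitted under these alternatives. Depth limits EPHB3, SEMA3D, PLXNA4, UNC5A and UNC5C, whose libraries often held few counts.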
